A study of Homo sapiens with 6 samples.

Results

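The 10 genes described here are the kinases PIM1, PIM2 and PIM3, the feedback inhibitors CISH, SOCS1, SOCS2 and SOCS3, the cytokine OSM and the transcription factors STAT5A and STAT5B. They were chosen by name as the STAT5 pathway's factors and its usual output, 10 of 19775 genes measured. The rule that picks them uses no measured change. These genes and the lists of related genes below were nevertheless chosen with earlier results of these data known, so shares of them called are descriptions only. The tested cells were MV4;11 cells kept for 3 h with 25 nM CA (cortistatin A, by the title of the series), an inhibitor of the Mediator kinases CDK8 and CDK19 (3 arrays). The control cells were MV4;11 cells kept for 3 h with the solvent DMSO (3 arrays). Both groups are the same MLL-AF4-rearranged acute myeloid leukaemia line, grown in serum-containing medium and plated in wells of a 12-well plate at 500000 to 800000 cells per mL, and both therefore carry the MLL-AF4 fusion. Whether the wells were independent cultures is not in the labels, and p-values rest on variation among these wells alone, and that variation may be technical. All values are RNA levels from Affymetrix U133 Plus arrays, on the log2 RMA scale, where a difference of 1 is a factor of 2.

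STAT5A and STAT5B are latent transcription factors that are phosphorylated after cytokine receptors or receptor kinases activate Janus kinases, and then bind DNA as dimers. Among the genes they are known to switch on are CISH and SOCS2, whose proteins dampen the same receptors, and PIM1, a kinase that promotes survival and growth of blood cells. MV4;11 cells are known to carry an activating internal duplication of the receptor kinase FLT3, a form of the receptor that signals through STAT5. Every level here is relative to the whole labelled RNA of a well, and fewer cells expressing a gene and less RNA per cell cannot be told apart.

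PIM1 and CISH were higher with cortistatin A, and the other 8 genes did not pass the test. PIM1 rose 1.5-fold and CISH 1.32-fold. The share of members called, 2 of 10, both higher, stands beside 0.582% of all genes called in either direction, 0.445% higher and 0.137% lower, at a limma adjusted p under 0.05. The median change over the members was -0.04 on the log2 scale, against 0.0065 over all genes, with 4 members above 0 and 6 below. Groups did not overlap for 4 of the 10 members, 3 of them with all cortistatin A arrays above all DMSO arrays and 1 below, a share to be read against 19.4% of all genes, 10.2% above and 9.22% below.

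**Figure D1:**
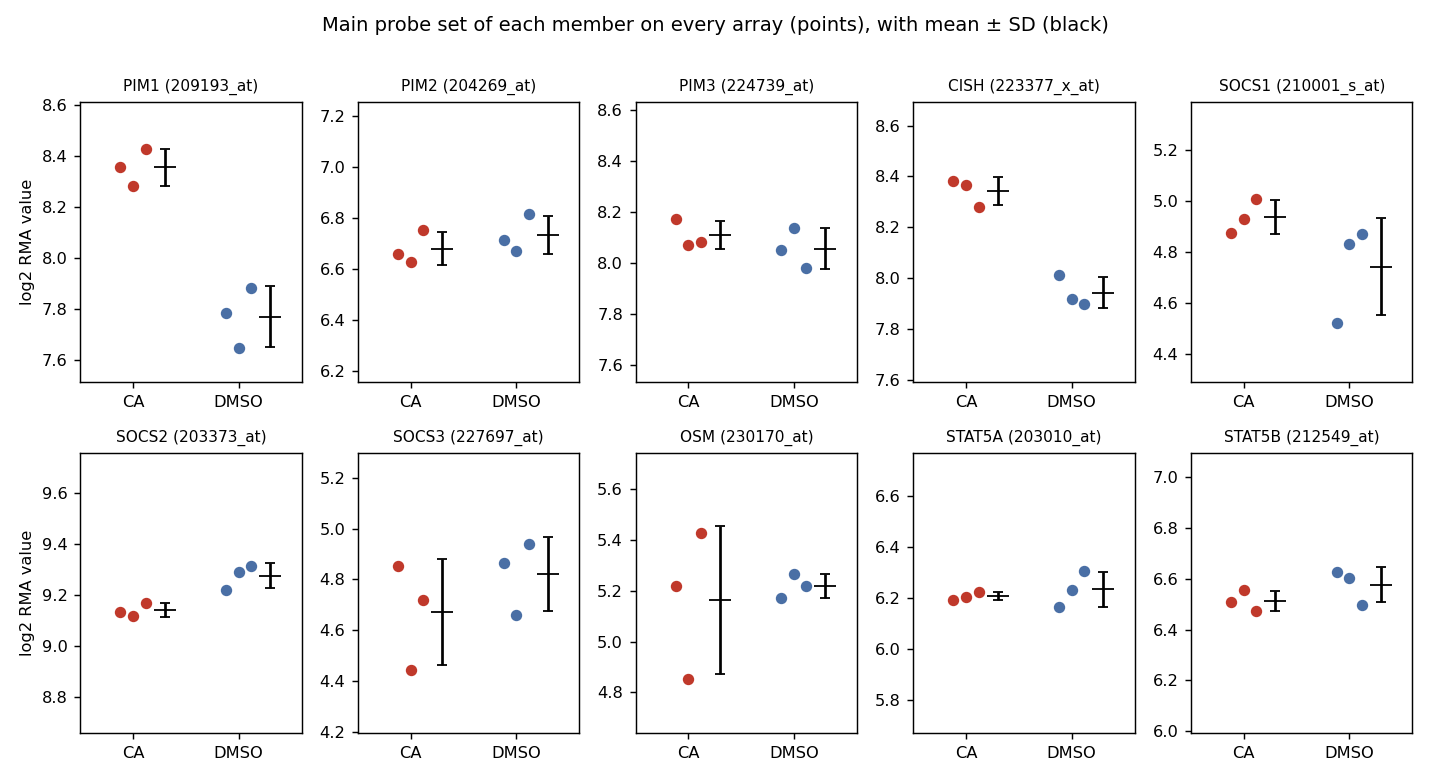
Log2 RMA value (vertical axes, each spanning the same range) of the main probe set of each of the 10 members on the 3 cortistatin A arrays (red, labelled CA) and the 3 DMSO arrays (blue), with mean ± SD in black. The red points of PIM1 and CISH lie clear of the blue ones, those of SOCS2 lie just below, and those of PIM2, PIM3, SOCS3, OSM, STAT5A and STAT5B overlap with the blue ones.

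The PIM kinases are constitutively active serine/threonine kinases, so that their activity follows their amount. PIM1 was measured by 1 probe set, 209193_at. Its values were 8.36, 8.28 and 8.43 on the cortistatin A arrays, against 7.78, 7.64 and 7.88 on the DMSO arrays. The lowest cortistatin A array stood above the highest DMSO array. The change was 0.59 ± 0.08 on the log2 scale (limma SE, 95% interval 0.40 to 0.77, n = 3 arrays per group, limma adjusted p = 0.0341). PIM1 had the 32nd largest rise of all genes.

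PIM2, known for its high level in myeloma cells, had 6.66, 6.63 and 6.75 with cortistatin A and 6.71, 6.67 and 6.81 with DMSO. The groups overlapped, and the change of -0.05 ± 0.06 did not pass (limma adjusted p = 0.787, 95% interval -0.20 to 0.10). PIM3, the remaining kinase of the family, had 8.17, 8.07 and 8.08 with cortistatin A and 8.05, 8.14 and 7.98 with DMSO. These groups overlapped too. Its change was 0.05 ± 0.06 (limma adjusted p = 0.788, 95% interval -0.10 to 0.20), and it turned to -0.11 when arrays were centred on the median level of housekeeping genes.

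The difference between PIM1 and its paralogs was tested within each array, a comparison chosen after the values had been seen. PIM1 minus PIM2 was 1.66 to 1.70 on the cortistatin A arrays, against 0.97 to 1.07 on the DMSO arrays, so that PIM1 changed by 0.64 more than PIM2. PIM1 minus PIM3 was 0.18 to 0.34 with cortistatin A and -0.50 to -0.10 with DMSO, a shift of 0.53. Neither pair of ranges overlapped. For each the two-sided exact permutation p was 0.1, the smallest that 3 against 3 arrays allow (0.125 adjusted over the 5 differences tested among the members), so this test could not reach 0.05.

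CISH encodes a SOCS family protein that binds phosphorylated cytokine receptors, and its gene is a classical target of STAT5. The RefSeq window around its start, 250 bases before to 50 after, lies at chr3:50611725-50612024 on the minus strand of GRCh38.p14, upstream of and over the beginning of the gene (chromosome 3, 50606489 to 50611774). It is shown because it carries the STAT motif TTCNNNGAA 4 times, printed in capitals, while the window of PIM1, the other gene that rose, carries none. The motif reads the same on both strands, and no copies overlap here. The PIM1 window is chr6:37169902-37170201 on the plus strand, at the start of the gene (chromosome 6, 37170152 to 37175428).
CISH: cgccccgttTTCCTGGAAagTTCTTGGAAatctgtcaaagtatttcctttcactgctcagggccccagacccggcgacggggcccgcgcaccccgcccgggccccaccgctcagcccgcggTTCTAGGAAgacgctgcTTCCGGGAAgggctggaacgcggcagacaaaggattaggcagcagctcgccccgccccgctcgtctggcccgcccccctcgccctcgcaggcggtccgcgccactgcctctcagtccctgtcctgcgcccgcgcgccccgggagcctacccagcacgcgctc
PIM1: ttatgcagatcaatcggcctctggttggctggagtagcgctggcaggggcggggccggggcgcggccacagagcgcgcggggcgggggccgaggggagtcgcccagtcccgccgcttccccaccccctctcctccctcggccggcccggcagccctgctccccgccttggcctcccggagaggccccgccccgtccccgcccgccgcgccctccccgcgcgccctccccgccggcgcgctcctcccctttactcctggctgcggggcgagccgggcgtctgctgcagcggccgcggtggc

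The 4 CISH copies are TTCCTGGAA, TTCTTGGAA, TTCTAGGAA and TTCCGGGAA, centred 237, 226, 125 and 108 bases before the start, in 2 close pairs. Of 34943 RefSeq windows of this length 7.66% hold the motif at least 1 time and 7 windows hold it 4 or more times. Among the members 8 have a window in the table, with 11 windows in all, and CISH is the only 1 of these 8 with the motif. SOCS2 and OSM have no window there. A match describes these letters only, and says nothing of binding in these cells.

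CISH was read by 3 probe sets, all of the _x_at or _s_at types, which can also bind related transcripts. The main one, 223377_x_at, had 8.38, 8.37 and 8.28 on the cortistatin A arrays, against 8.01, 7.92 and 7.90 on the DMSO arrays. Its change was 0.40 ± 0.06 (limma SE, 95% interval 0.26 to 0.54, n = 3 arrays per group, limma adjusted p = 0.0480). The margin below the threshold was thus narrow, and CISH held the 109th smallest p among all genes.

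The other CISH probe sets gave the same size of difference. Probe set 221223_x_at had 8.16, 8.09 and 8.11 with cortistatin A and 7.71, 7.69 and 7.70 with DMSO, a change of 0.42 ± 0.05. Probe set 223961_s_at had 6.94, 6.90 and 7.01 with cortistatin A and 6.47, 6.43 and 6.68 with DMSO, a change of 0.42 ± 0.08. For each of the 3, all cortistatin A arrays stood above all DMSO arrays.

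SOCS1, SOCS2 and SOCS3 share the SH2 domain and SOCS box of CISH and are induced by different STATs. SOCS1, an inhibitor of Janus kinases that interferon induces, had 4.87, 4.93 and 5.01 with cortistatin A and 4.52, 4.83 and 4.87 with DMSO on its main probe set. Every cortistatin A array was higher, the closest pair almost touching, and 1 DMSO array was low. The change was 0.20 ± 0.10 (limma adjusted p = 0.493, 95% interval -0.05 to 0.44), and 0.086 without DMSO replicate 1, the low array. Of the other 3 SOCS1 probe sets, which overlapped between the groups, 210000_s_at stood at 0.20 and was dim (its mean lay under the median of all probe sets), 213337_s_at at -0.0009 and 209999_x_at at -0.01.

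SOCS2, known for restraining growth hormone signalling and for its response to STAT5, had 9.13, 9.12 and 9.17 with cortistatin A, against 9.22, 9.29 and 9.32 with DMSO. All cortistatin A arrays were below all DMSO arrays, by a small step. The change of -0.14 ± 0.05 had an unadjusted p of 0.0334 and did not pass over all genes (limma adjusted p = 0.341, 95% interval -0.26 to -0.01). At an unadjusted p under 0.05 stood 3 of the 10 members, PIM1 and CISH higher and SOCS2 lower, against 12.6% of all genes, 6.81% higher and 5.83% lower.

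A further SOCS2 probe set, 203372_s_at, had 5.96, 6.01 and 6.03 with cortistatin A and 6.31, 6.32 and 6.20 with DMSO. Its groups did not overlap either, and its change was -0.28 ± 0.06 (adjusted p = 0.203 in limma over all single-gene probe sets). The SOCS2 probe set 232539_at was dim and stood at -0.06. CISH and SOCS2, both known STAT5 targets, thus stood on opposite sides of 0. CISH minus SOCS2 on the same array was -0.89 to -0.75 with cortistatin A and -1.42 to -1.21 with DMSO, a shift of 0.53 (two-sided exact permutation p = 0.1, the smallest possible, 0.125 adjusted over 5 differences).

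SOCS3, which STAT3 induces and which binds the shared receptor of the interleukin 6 family, had 4.85, 4.44 and 4.72 with cortistatin A and 4.87, 4.66 and 4.94 with DMSO. The groups overlapped, with a change of -0.15 ± 0.12 (limma adjusted p = 0.671). That value leaned on single arrays, at -0.036 without cortistatin A replicate 2, -0.24 without cortistatin A replicate 1, -0.23 without DMSO replicate 2 and -0.091 without DMSO replicate 3. Its other 3 probe sets lay between -0.05 and 0.04. CISH minus SOCS3 shifted by 0.55 (two-sided exact permutation p = 0.1, adjusted 0.125), and CISH minus SOCS1 by 0.20 with overlapping groups (two-sided exact permutation p = 0.3).

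OSM encodes oncostatin M, a cytokine of the interleukin 6 family whose gene was described as a STAT5 target in mouse blood cells. It had 5.22, 4.85 and 5.43 with cortistatin A and 5.17, 5.26 and 5.22 with DMSO. Here the spread lay in the cortistatin A group, with an SD of 0.29 against 0.05 in DMSO, and replicate 2 was the low array. The change was -0.05 ± 0.14 (limma adjusted p = 0.914, 95% interval -0.38 to 0.28) and turned to 0.10 without cortistatin A replicate 2. Its other probe set, 214637_at, stood at -0.09, with overlapping groups.

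The factors themselves did not pass. STAT5A had 6.19, 6.20 and 6.22 with cortistatin A and 6.16, 6.23 and 6.30 with DMSO, a change of -0.03 ± 0.05 (limma adjusted p = 0.881, 95% interval -0.16 to 0.10) that turned to 0.0084 without DMSO replicate 3. STAT5B had 6.51, 6.55 and 6.47 with cortistatin A and 6.63, 6.60 and 6.50 with DMSO, a change of -0.06 ± 0.06 (limma adjusted p = 0.707, 95% interval -0.20 to 0.07). Both genes overlapped between the groups. The other 4 STAT5B probe sets overlapped as well and lay between -0.10 and 0.10. These arrays read RNA, and the phosphorylated protein was not measured.

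**Figure D2:**
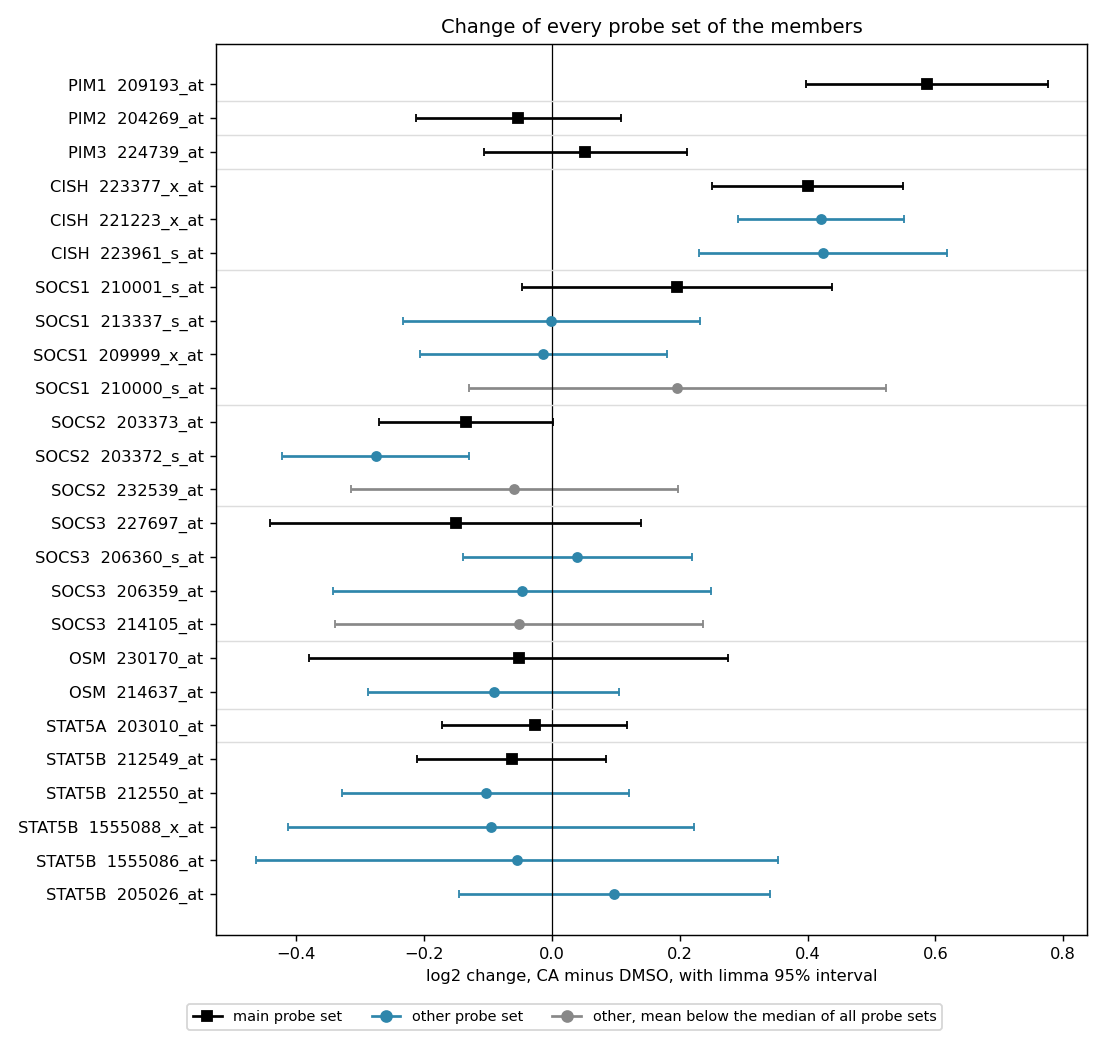
Log2 change (horizontal axis, cortistatin A minus DMSO) of each of the 25 member probe sets with its limma 95% interval, from the fit over all single-gene probe sets. Black squares are main probe sets, blue circles other probe sets, and grey circles the dim ones. The intervals of PIM1, of the 3 CISH probe sets and of SOCS2 203372_s_at exclude 0, the last on the negative side.

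With all 41091 single-gene probe sets tested as such, 0 of the 25 member probe sets were called by limma, where 0.18% of all probe sets were, 0.141% higher and 0.0389% lower. The smallest adjusted p were 0.0536 for CISH 221223_x_at and 0.0617 for PIM1. At an unadjusted p under 0.05 stood 5 of the 25, against 11.3% of all probe sets, and groups did not overlap for 7 of the 25, against 17.6%. The 5 are PIM1, the 3 probe sets of CISH and SOCS2 203372_s_at, and the 7 also hold SOCS1 210001_s_at and SOCS2 203373_at. Neither count is thus one of separate genes.

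The calls of PIM1 and CISH rested on all 6 arrays. Without cortistatin A replicate 1, 2 or 3 or DMSO replicate 1, 2 or 3, limma called 0 members, with an unadjusted p of 0.00163 or less for both genes. The PIM1 change was then 0.52 to 0.64 (limma adjusted p 0.108 to 0.167) and the CISH change 0.38 to 0.43 (limma adjusted p 0.124 to 0.206). Across the alternatives tried, the limma adjusted p ran from 2.8e-05 to 0.418 for PIM1 and from 0.000126 to 0.380 for CISH.

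How complete the labelled transcripts were is read from control probe sets at both ends of a transcript. For beta-actin the 3' end exceeded the 5' end by 1.88 to 2.08 with cortistatin A and 1.69 to 1.79 with DMSO, and the groups were apart (exact permutation p = 0.1, two-sided, the smallest possible). The mean over all 22 pairs of control probe sets, of which only 3 are for human messengers, overlapped. It was 0.72 to 0.77 with cortistatin A and 0.65 to 0.75 with DMSO (two-sided exact permutation p = 0.4). With that mean as a covariate PIM1 stood at 0.62 (unadjusted p = 0.000637) and CISH at 0.42 (unadjusted p = 0.00127), and limma called 0 members (adjusted p = 0.157 and 0.199). The mean of the 3 human messenger controls did not overlap, at 2.81 to 2.92 with cortistatin A and 2.76 to 2.78 with DMSO (two-sided exact permutation p = 0.1, the smallest possible). A fit on these arrays can therefore not fully tell this human mean from treatment. With this human mean as a covariate PIM1 stood at 0.47 (limma unadjusted p = 0.0102) and CISH at 0.45 (limma unadjusted p = 0.0043), again with 0 members called (limma adjusted p = 0.418 and 0.380). OSM stood at -0.46 in that fit (limma adjusted p = 0.441, over its alternatives 0.229 to 0.968).

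**Figure D3:**
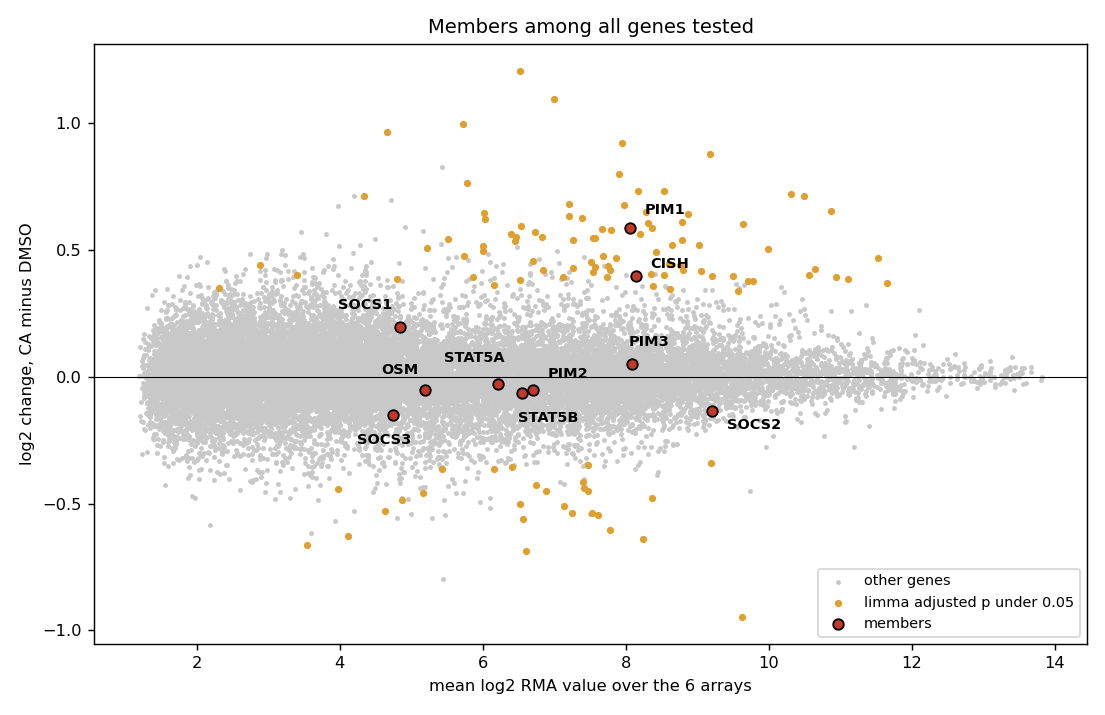
Log2 change (vertical axis, cortistatin A minus DMSO) against mean log2 RMA value over the 6 arrays (horizontal axis) for all 19775 genes, with called genes in orange and the 10 members in red. PIM1 and CISH lie among the called genes above 0, and the other 8 members lie inside the grey band of genes that were not called.

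Across the series 115 genes passed, 88 higher and 27 lower with cortistatin A (76.5% higher). When arrays were centred on the median level of housekeeping genes, which is the level of the single gene TFRC on all 6 arrays, the median of all genes moved by -0.16 and the split was 119 higher and 3921 lower (2.95% higher). Taking that shift back out returns the members' changes given above by construction, so it is no check of them. In that centring PIM1 (0.42) and CISH (0.24) were called higher (limma adjusted p = 0.0253 and 0.0450). PIM2 (-0.22), SOCS2 (-0.30) and STAT5B (-0.23) were called lower (limma adjusted p = 0.0429, 0.0262 and 0.0484). The upper part of all probe sets, split at their median, held 12622 of all 19775 genes, each read by its probe set of highest mean. Of 8 measured myeloid leukaemia markers all 8 lay in it, with a mean level of 7.11 to 7.23 with cortistatin A and 7.09 to 7.21 with DMSO. By limma 0 of them were called, and 2 had an unadjusted p under 0.05, against 12.6% of all genes. In that upper part lay also 2 of 5 T cell markers, 3 of 4 B cell markers, 1 of 2 erythroid markers and 2 of 5 epithelial markers, and these lists averaged at most 4.16 with cortistatin A and 4.09 with DMSO. Of them 0 were called by limma and 1 had an unadjusted p under 0.05, the keratin KRT18, at 7.04 ± 0.03 with cortistatin A and 7.18 ± 0.02 with DMSO (SD, n = 3 arrays each, limma adjusted p = 0.285).

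By Pearson correlation of log2 values over the 6 arrays, the genes whose pattern was most like that of PIM1 were AMMECR1 (r = 0.9994), ARID3B (0.9970), HMX2 (0.9963), TASOR2 (0.9946) and COA7 (0.9935). Only genes that were not dim were searched, and the points share the 2 groups and their arrays. Their changes were smaller than that of PIM1, from 0.14 for AMMECR1 to 0.39 for ARID3B, and 0 of the 5 passed over all genes although each had an unadjusted p under 0.05 (limma adjusted p from 0.0748 for ARID3B to 0.277 for AMMECR1).

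Around the members, 82 genes of the related lists outside the 10 were measured, here called pathway genes. The lists cover JAK-STAT signalling, target genes of STATs and interferon, PIM kinase substrates and oncostatin M relatives. Of the 82 genes 3 rose, KIT, IL7R and MYC, while 0 were called lower by limma. Over all genes 0.445% were called higher and 0.137% lower. At an unadjusted p under 0.05 stood 13 of the 82 lower and 12 higher, against 5.83% and 6.81% of all genes. Their median change was 0.01, against 0.0065 over all genes. Among 15 receptors that signal through STAT5, 2 were called, both higher. Of the 15, 5 were higher and 2 lower at an unadjusted p under 0.05. KIT, the receptor of stem cell factor, had 8.998, 9.13 and 9.05 with cortistatin A and 8.54, 8.47 and 8.55 with DMSO. Its change was 0.54 ± 0.06 (limma adjusted p = 0.0227). IL7R, a chain of the interleukin 7 receptor, stood at 6.11, 6.05 and 6.34 with cortistatin A and at 5.48, 5.37 and 5.36 with DMSO, a rise of 0.76 ± 0.09 (limma adjusted p = 0.0248). Both calls, and that of MYC, ended when any 1 of the 6 arrays was left out (limma adjusted p 0.0909 to 0.111 for KIT, 0.0875 to 0.131 for IL7R and 0.122 to 0.159 for MYC).

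The receptor chain of granulocyte-macrophage colony-stimulating factor CSF2RA, read by an _x_at probe set, stood at 0.36 ± 0.06 and did not pass (limma adjusted p = 0.0782). With its probe sets averaged CSF2RA stood at 0.26 (limma adjusted p = 0.184), and in 3 of its 17 alternatives it newly passed. FLT3 had 9.49, 9.45 and 9.43 with cortistatin A and 9.67, 9.60 and 9.69 with DMSO. All its cortistatin A arrays were lower, and the change of -0.20 ± 0.05 did not pass (limma adjusted p = 0.196).

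**Figure D4:**
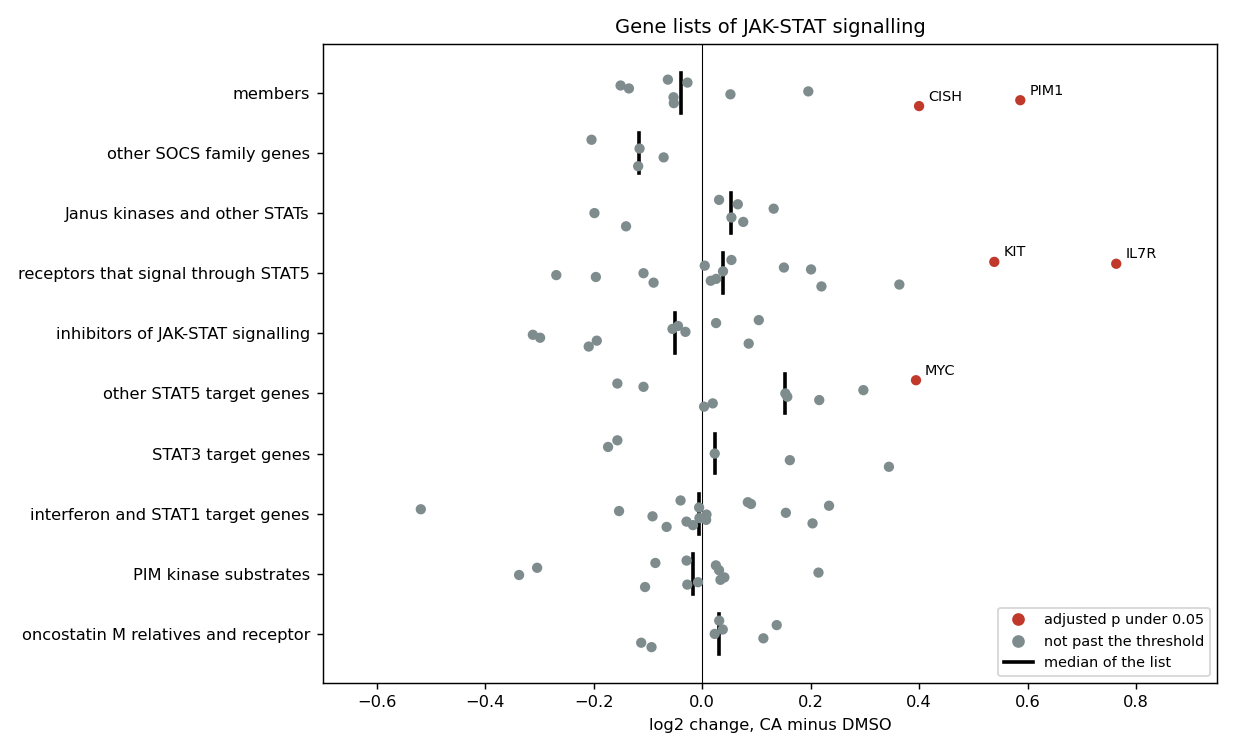
Log2 change (horizontal axis, cortistatin A minus DMSO) of each gene in the member list and 9 related lists. The 9 cover JAK-STAT signalling, target genes of STATs and interferon, PIM kinase substrates and oncostatin M relatives. Genes past a limma adjusted p of 0.05 are in red and named, other genes in grey, and the list's median is a black bar. Named genes appear in the lists of the members, the receptors and the other STAT5 targets, all on the positive side.

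Of 9 other STAT5 targets 1 was called, higher. At an unadjusted limma p under 0.05 stood 3 higher and 1 lower, against 6.81% and 5.83% of all genes. MYC, the growth-promoting transcription factor, had 11.12, 11.15 and 11.13 with cortistatin A and 10.76, 10.69 and 10.77 with DMSO, a change of 0.39 ± 0.05 (limma adjusted p = 0.0332). The cell cycle gene CCND3 (0.15) and the survival gene MCL1 (-0.16) did not pass, and the survival gene BCL2L1, often used as a readout of STAT5, stood at 0.0035. MCL1 stood at -0.025 without _x_at and _s_at probe sets. The list's median was 0.15, with 7 members above 0 and 2 below. CCND3 turned to -0.012 with centring on the median level of housekeeping genes.

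Upstream, 0 of 7 measured Janus kinases and other STATs were called by limma, and 2 had an unadjusted p under 0.05. STAT3 stood at -0.20 ± 0.05 (limma adjusted p = 0.202) and JAK1 at -0.14 ± 0.05 (limma adjusted p = 0.312), both without overlap between the groups. Over all genes 12.6% had an unadjusted p under 0.05, and for 19.4% the groups did not overlap. STAT6 stood at 0.07, turning to -0.099 with that housekeeping centring and to -0.079 with its probe sets averaged. STAT3 turned to 0.0077 when its probe sets were averaged.

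The other SOCS genes and the inhibitors of the pathway gave 0 calls by limma, with 4 and 10 genes measured. Of these 1 and 4 had an unadjusted p under 0.05, against 12.6% of all genes. SOCS4, SOCS5, SOCS6 and SOCS7 all stood below 0, from -0.20 for SOCS7 to -0.07 for SOCS5, and SOCS4 turned to 0.013 with its probe sets averaged. Of the inhibitors, 7 stood below 0 and 3 above, and the median was -0.05. Those with the smallest p were the SUMO ligases PIAS2 (-0.30 ± 0.08) and PIAS3 (-0.31 ± 0.09) and the ubiquitin ligase CBL (-0.21 ± 0.07), with limma adjusted p of 0.215, 0.223 and 0.319.

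Among 12 genes whose proteins PIM kinases phosphorylate 0 were called by limma, and 2 had an unadjusted p under 0.05. The share of all genes under that p was 12.6%, to be read beside each such count in this paragraph. The cell cycle inhibitor CDKN1A stood at -0.34 ± 0.05 (limma adjusted p = 0.0679), its relative CDKN1B at 0.21 ± 0.07 (limma adjusted p = 0.290) and FOXO1 at -0.30 ± 0.17 (limma adjusted p = 0.530). FOXO1 ran from -0.44 without DMSO replicate 1 to -0.16 without DMSO replicate 3, with -0.17 without cortistatin A replicate 2, and stood at -0.073 with its probe sets averaged. Of 5 STAT3 targets 0 were called (2 at an unadjusted p under 0.05), with CEBPD at 0.34 ± 0.06 (limma adjusted p = 0.0689), MCL1 as above and JUNB at -0.17. Without _x_at and _s_at probe sets CEBPD stood at 0.155 (limma unadjusted p = 0.229). Of 16 interferon targets 0 were called, and 4 had an unadjusted p under 0.05. IRF9, the DNA-binding partner in the interferon-activated STAT complex, stood at -0.52 ± 0.09 (limma adjusted p = 0.0898), IRF7 at -0.15 and GBP2 at 0.20. GBP2 fell to 0.043 with its probe sets averaged and to 0.024 with the human control mean as a covariate. Among 7 relatives and receptor chains of oncostatin M 0 were called and 0 had an unadjusted p under 0.05, the smallest p belonging to LIFR (0.14), IL11 (-0.11) and IL6 (0.11). LIFR and IL6, both dim, turned to -0.027 and -0.052 with centring on the median housekeeping level.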

How the data were processed

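Affymetrix U133 Plus arrays of 3 CA and 3 DMSO samples of MV4;11 cells were grouped by the sample titles. The authors deposited 1 log2 value per probe set and array, made with RMA and the affy package, per the submitters' processing notes. The log2 scale was inferred from the range, 0.81 to 13.84. RMA makes array distributions alike, so a shift of all transcripts would not show. The number of arrays limits the precision. Probe sets with a mean below 3.75, the median over all of them, are called dim.

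Of 54675 probe sets 41091 name 1 gene in the platform annotation, with 41037 symbols updated through the RefSeq table of GRCh38.p14, which also gave the promoter windows. Each gene was read by its probe set of highest mean. No filter removed any of the 10 members (25 probe sets, 3 dim). Groups were compared, CA minus DMSO, using limma 3.58.1 (R 4.3.3; lmFit, eBayes, no covariate, two-sided), with Benjamini-Hochberg adjustment over 19775 genes and a threshold of 0.05. On arrays simulated for this comparison with 19775 genes, 13.0% of 1.2-fold, 68.8% of 1.5-fold and 92.7% of 2-fold changes among genes that are not dim were recovered.

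The members and lists were chosen with earlier results of these data known. All members are named, with every called gene of each list, up to 3 genes of smallest p, and the 5 genes most like the member with the smallest p. FLT3 and BCL2L1 were added after their values were seen. The alternatives tried changed the gene summary, filter, normalization, variance model, covariates, threshold and arrays used. No pair of arrays held the same values (correlations 0.9969 to 0.9979). RNA was isolated by column or TRIzol, with no record here of which array had which.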

Additional observations from a re-analysis of the deposited data

How the results depend on the processing

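The number of genes called was 115. It was 0 with the replicate number as a block (2243 genes at an unadjusted p under 0.05), 321 over genes that are not dim, 76 with a gene's probe sets averaged, 54 without _x_at and _s_at probe sets, 62 with all probe sets tested, 4040 with centring on the median housekeeping level, 762 with trend and robust variances, 260 at an adjusted p under 0.1, and 0 with the end-to-end index of all controls or of human controls as a covariate (1960 and 1934 at an unadjusted p under 0.05). Leaving out 1 array gave 0 to 4 genes, 0 members and 0 pathway genes. The members called were 2 as reported, 5 with centring on the median housekeeping level, 1 with a further quantile normalization (PIM1), 1 without _x_at and _s_at probe sets (PIM1, where CISH and SOCS1 were not measured), 1 with centring on the median deviation of housekeeping genes (PIM1), and 0 with the block, with all probe sets tested and with either index. The 3 pathway genes called became 7 with dim genes left out and 1 without _x_at and _s_at probe sets (IL7R, where KIT and MYC were not measured). They became 22 with centring on the median housekeeping level, 13 with trend and robust variances, 7 at an adjusted p under 0.1 and 0 with the block or either index. The centring on the median deviation and the index of human controls were chosen after seeing the data.

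Values that changed sign, none of them called, were PIM3 (-0.11), STAT6 (-0.099), CCND3 (-0.012), LIFR (-0.027) and IL6 (-0.052) with centring on the median housekeeping level, SOCS4 (0.013), STAT3 (0.0077) and STAT6 (-0.079) with probe sets averaged, OSM (-0.18 to 0.10 with 1 array left out) without cortistatin A replicate 2 and STAT5A (-0.062 to 0.0084) without DMSO replicate 3. The cause was not tested, other than that the median housekeeping level is that of TFRC, whose own value was 0.16 higher with cortistatin A. Over 178 values of the members under the alternatives, 150 kept their sign and side of the threshold, 22 no longer passed, 3 newly passed and 3 changed sign. All 22 belonged to the called members, PIM1 in 10 of its 18 alternatives and CISH in 12 of its 17. Of the 150, PIM1 gave 8 and CISH 5, and the rest came from members that were not called as reported. The replicate numbers gave no sign of pairing, with correlations of same-numbered deviations of -0.055, 0.0095 and 0.016, and not every array correlated best with its own number. With 1 array left out, PIM2 ran from -0.089 to -0.012, PIM3 from 0.014 to 0.093 and STAT5B from -0.10 to -0.037. Of the 25 member probe sets 3 are dim, 1 each of SOCS1, SOCS2 and SOCS3, and none of these is a main one. A probe set that is not dim may still read background. The main probe sets of SOCS1 (mean 4.84), SOCS3 (4.75) and OSM (5.19) lay near the highest erythroid marker HBB (4.70) and the highest B cell marker CD79A (5.12). The highest T cell marker CD3E (4.39) and the myeloid marker SPI1 (4.36) lay lower, and the highest epithelial marker KRT18 (7.11) lay higher. Whether SOCS1, SOCS3 and OSM stood above background was not tested.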
